A study of Homo sapiens with 12 samples.

Results

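MHC class II molecules are surface proteins that carry peptides from the endosomal and lysosomal compartments to CD4+ T cells. Each is a pair of an alpha and a beta chain (HLA-DR, HLA-DP or HLA-DQ). The chains assemble on the invariant chain CD74, and HLA-DM then removes the invariant chain remnant and helps stable peptides to bind. CIITA, the class II transactivator, does not bind DNA itself. It docks on a complex of RFX, CREB and NF-Y proteins at the X and Y boxes in front of these genes, and its own level is known as the main switch of the pathway. Dendritic cells, B cells and macrophages are the usual sites of class II expression, and myeloid progenitors and many myeloid leukaemias also carry it.

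The 10 genes described here are CIITA, CD74, HLA-DRA, HLA-DRB1, HLA-DPA1, HLA-DPB1, HLA-DQA1, HLA-DQB1, HLA-DMA and HLA-DMB, chosen by name from the 63677 genes of the deposited counts. All 10 were found and all 10 passed the filter on low counts, HLA-DMB through the drug-treated WT libraries alone. The 8 HLA genes lie on chromosome 6, CD74 lies on chromosome 5 and CIITA on chromosome 16.

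The cells were SET-2, an established human line labelled as acute myeloid leukaemia. They carried either LSD1 with an inserted arginine (Leu659_Asn660insArg), called insR here, or wild-type LSD1, called WT. LSD1 (gene KDM1A) is a histone demethylase, and GSK-LSD1 is a small molecule that inactivates it. The 4 groups were insR with 250 nM GSK-LSD1, insR with 0.1% v/v DMSO, WT with 250 nM GSK-LSD1 and WT with 0.1% v/v DMSO, each for 48 h and with 3 libraries. The labels name the insR cells as drug-resistant and do not say how many clones they stand for, nor whether libraries came from separate cultures. If they did not, p-values measure a spread that may be technical.

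Libraries were made with a 3′ tag kit (QuantSeq FWD), which reads the end of each polyadenylated transcript, and held 4837096 to 10141155 reads in genes. Values are in CPM, read counts set to a common library size by TMM scaling. A count of 3 corresponds to 0.296 to 0.620 CPM, depending on the library, and this floor covers counting error only. KDM1A had 106 ± 4.56 CPM in insR GSK-LSD1, 109 ± 2.17 CPM in insR DMSO, 216 ± 3.01 CPM in WT GSK-LSD1 and 264 ± 26.4 CPM in WT DMSO cells (SD, n = 3 each). The 3′ counts do not show the insertion. SET-2 cells were checked against 15 haematopoietic and megakaryocyte-erythroid markers, of which 13 averaged at least 1 CPM in every group and PF4, a platelet chemokine, had no read in any library. Counts of genes with close copies are uncertain, as reads that aligned to more than 1 place were not assigned to a gene. Those alignments made up 57.9% to 62.6% of each deposited table.

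Several of these genes share letters of the X and Y boxes in their promoters. RefSeq promoter windows of 300 bases (GRCh38.p14, 250 bases before to 50 after each start) were found for 8 of the 10 genes, all but HLA-DRA and CIITA. They were searched on both strands for the X box letters CNAGNNA followed directly by NNNATG, and for the Y box letters ATTGG, which do not overlap each other in the windows shown. The letters were chosen with these promoters in view, so the matches are a description. X letters stood on the gene's strand in 5 of the 8 and Y letters in 5 of the 8. Across 35116 promoters, 2.41% held the X letters and 34.6% held the Y letters on either strand. These shares are thus not on the same measure as the counts for the gene's strand. X letters followed by Y letters on one strand, with 15 to 25 bases between them, occurred in 10 promoters (0.0285%). Of these, 4 belonged to HLA-DRB1, HLA-DQB1, HLA-DPB1 and HLA-DMA, 1 belonged to the copy HLA-DRB5, and 1 to MR1, a class I-like gene. The other 4 were PTCHD4, LINC00841, KRTAP1-1 and LOC105372510. The stretch around the pair is printed 5′ to 3′ on the gene's strand, with the X letters and then the Y letters in capitals. HLA-DMB, which had X letters on its own strand and Y letters on the other, and HLA-DOA, which had Y letters alone, are added because their levels depart from the others below.
HLA-DRB1, chr6:32589884-32589935, minus strand: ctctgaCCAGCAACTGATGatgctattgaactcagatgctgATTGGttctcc
HLA-DRB5, chr6:32530367-32530418, minus strand: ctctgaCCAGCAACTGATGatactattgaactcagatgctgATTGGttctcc
HLA-DQB1, chr6:32666735-32666786, minus strand: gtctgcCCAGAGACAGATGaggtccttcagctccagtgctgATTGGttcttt
HLA-DPB1, chr6:33075850-33075901, plus strand: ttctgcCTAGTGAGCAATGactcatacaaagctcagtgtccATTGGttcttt
HLA-DMA, chr6:32953166-32953218, minus strand: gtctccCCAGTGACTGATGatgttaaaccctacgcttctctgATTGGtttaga
HLA-DMB, chr6:32941073-32941124, minus strand: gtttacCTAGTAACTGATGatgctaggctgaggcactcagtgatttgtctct
HLA-DOA, chr6:33009648-33009699, minus strand: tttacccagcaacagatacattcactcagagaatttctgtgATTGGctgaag
In these letters HLA-DRB1 and its copy HLA-DRB5 are nearly the same sequence. No match in a window says only that these letters are not in it. HLA-DPA1 had neither motif in either of its 2 annotated windows, HLA-DQA1 had Y letters on both strands, and CD74 had Y letters on the other strand.

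**Figure D1:**
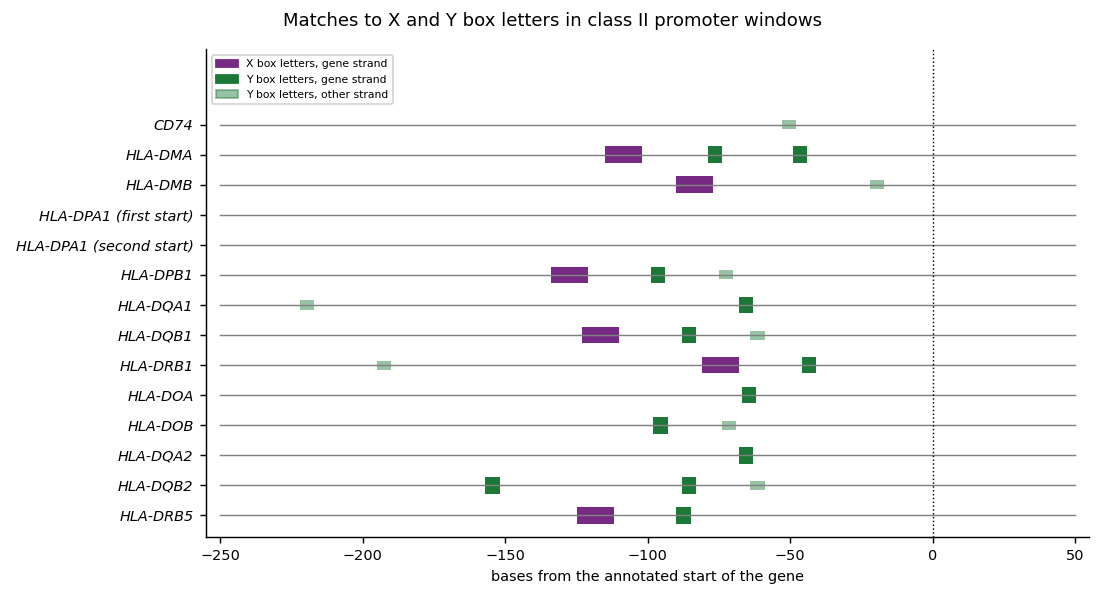
Positions of X box letters (purple) and Y box letters (green; pale where on the other strand) in RefSeq promoter windows, in bases from the annotated start of each gene, with 250 bases before and 50 after it. The X and Y pair lies within the last 150 bases before the start in HLA-DRB1, HLA-DQB1, HLA-DPB1, HLA-DMA and HLA-DRB5.

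With GSK-LSD1 9 of the 10 genes rose in WT cells and none fell, where 22.7% of all genes tested were called higher and 22.5% lower. Untreated insR cells already stood above untreated WT cells for 9 of the 10, where 14.5% of all genes were called higher and 15.6% lower. In insR cells the drug changed none of them by the test, where 0.505% of all genes were called. Summed over the 10 genes, the libraries held 291, 284 and 297 CPM in insR GSK-LSD1 cells, against 273, 261 and 251 CPM in insR DMSO cells. The same sum was 234, 225 and 239 CPM in WT GSK-LSD1 cells, against 98.4, 103 and 95.7 CPM in WT DMSO cells. The WT DMSO libraries were the lowest by a wide gap, and the sums of the 4 groups did not overlap. These are RNA levels in bulk, where fewer cells with class II RNA and less RNA per cell cannot be told apart. The 2 comparisons with WT DMSO share those 3 libraries, so their values below are set side by side and are not independent.

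CIITA, the transactivator, had 22.5, 20.7 and 27.3 CPM in insR GSK-LSD1 cells, against 19.5, 17.8 and 16.0 CPM in insR DMSO cells. It had 18.8, 16.5 and 17.3 CPM in WT GSK-LSD1 cells, against 8.93, 10.7 and 9.62 CPM in WT DMSO cells. The WT DMSO libraries were below all others, and both drug groups lay above their vehicle without overlap. In WT cells CIITA rose 1.79-fold (log2 0.84, SE 0.16, edgeR quasi-likelihood adjusted p = 0.000171). In DMSO it was 1.82-fold higher in insR than in WT cells (log2 0.86, SE 0.16, adjusted p = 0.000156). Within insR cells the drug difference was 0.40 on the log2 scale with a 95% interval of 0.10 to 0.71, and did not pass (adjusted p = 0.382). CIITA is thus one of 2 genes, with HLA-DPA1, for which the difference between the insR and WT responses did not pass (log2 -0.43, 95% interval -0.88 to 0.02, adjusted p = 0.155).

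CD74, the invariant chain, had 63.5, 66.4 and 77.1 CPM in insR GSK-LSD1 cells, against 67.7, 66.5 and 58.4 CPM in insR DMSO cells. It had 73.5, 62.9 and 69.0 CPM in WT GSK-LSD1 cells, against 26.8, 29.5 and 24.1 CPM in WT DMSO cells. The first 3 groups overlapped one another and WT DMSO stood apart below them. CD74 rose 2.55-fold in WT cells with the drug (adjusted p = 7.95e-10) and was 2.39-fold higher in insR DMSO than in WT DMSO cells (adjusted p = 3.23e-09). The interval of the insR difference with the drug ran from -0.11 to 0.32 on the log2 scale.

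HLA-DRA encodes the alpha chain of HLA-DR, which varies little between people. It had 88.4, 85.0 and 75.9 CPM in insR GSK-LSD1 cells, against 70.7, 73.9 and 69.2 CPM in insR DMSO cells. It had 56.3, 61.0 and 67.6 CPM in WT GSK-LSD1 cells, against 23.1, 22.6 and 21.4 CPM in WT DMSO cells. The levels stepped down through the groups in that order without overlap. The steps were not equally large. Between insR DMSO and WT GSK-LSD1 cells HLA-DRA differed by 0.20 on the log2 scale and did not pass (95% interval 0.0034 to 0.40, adjusted p = 0.0748), and it passed with 0.28 (adjusted p = 0.0342) when WT GSK-LSD1 replicate 3 was left out. With the drug in both genotypes HLA-DRA was 1.34-fold higher in insR than in WT cells (adjusted p = 0.000645).

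HLA-DRB1 encodes the beta chain that pairs with it. The gene had 48.7, 44.1 and 49.7 CPM in insR GSK-LSD1 cells, against 49.8, 45.9 and 48.0 CPM in insR DMSO cells. It had 38.4, 30.8 and 31.3 CPM in WT GSK-LSD1 cells, against 13.5, 17.8 and 15.5 CPM in WT DMSO cells. The insR groups overlapped, WT GSK-LSD1 lay below both of them, and WT DMSO lay lowest. HLA-DRB1 rose 2.13-fold in WT cells with the drug (adjusted p = 3.14e-07), and insR DMSO cells were 1.44-fold above drug-treated WT cells (adjusted p = 0.000489). The drug difference in insR cells was -0.01 on the log2 scale, with an interval of -0.25 to 0.22.

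HLA-DPA1, the alpha chain of HLA-DP, split by genotype. It had 28.8, 24.4 and 26.6 CPM in insR GSK-LSD1 cells, against 30.6, 21.9 and 24.4 CPM in insR DMSO cells. It had 12.2, 12.4 and 11.5 CPM in WT GSK-LSD1 cells, against 10.9, 8.82 and 8.91 CPM in WT DMSO cells. The insR libraries were all above the WT libraries. The drug difference in WT cells was 0.34 on the log2 scale and did not pass (95% interval -0.02 to 0.70, adjusted p = 0.118), although the libraries did not overlap. HLA-DPA1 was the exception in that comparison, and was 2.72-fold higher in insR than in WT cells in DMSO (adjusted p = 1.01e-07). With the drug the fold between genotypes was 2.22 (adjusted p = 1.07e-06).

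HLA-DPB1, the beta chain of HLA-DP, had 8.36, 10.3 and 8.81 CPM in insR GSK-LSD1 cells, against 10.3, 7.41 and 9.99 CPM in insR DMSO cells. It had 6.22, 8.04 and 7.10 CPM in WT GSK-LSD1 cells, against 2.28, 1.60 and 3.39 CPM in WT DMSO cells. WT DMSO was again alone below the rest. HLA-DPB1 rose by 1.59 on the log2 scale in WT cells with the drug (SE 0.28, adjusted p = 5.48e-05). The 2 DP chains therefore did not keep 1 ratio: HLA-DPB1 reads per HLA-DPA1 read were 0.291, 0.424 and 0.331 in insR GSK-LSD1 and 0.338, 0.338 and 0.410 in insR DMSO cells. They were 0.508, 0.646 and 0.619 in WT GSK-LSD1 cells, against 0.210, 0.182 and 0.380 in WT DMSO cells. The ratio was highest in all 3 drug-treated WT libraries and was given no test. The annotated HLA-DPA1 and HLA-DPB1 genes overlap at their starts on opposite strands, and the strand setting of the counting is not given in the sources used here. The 3′ tag kit reads the other end of each transcript, and the part of the overlap in the ratio was not tested.

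HLA-DQA1 and HLA-DQB1 encode the chains of HLA-DQ, and HLA-DQA1 was near the limit of detection. It had 10, 4 and 15 reads in insR GSK-LSD1 cells, against 19, 15 and 7 reads in insR DMSO cells. It had 10, 11 and 4 reads in WT GSK-LSD1 cells, against 1, 1 and 0 reads in WT DMSO cells. WT DMSO had at most 1 read a library, below every other library. Per scaled library size, HLA-DQA1 was 11.5-fold higher in WT GSK-LSD1 than in WT DMSO cells (95% counting interval 2.88 to 100, adjusted p = 0.00374), and its fitted log2 value of 3.39 became 3.99 without WT GSK-LSD1 replicate 3, 2.66 with limma-voom and 2.46 with limma-trend. In DMSO, insR cells were 17.8-fold above WT cells (95% counting interval 4.63 to 152, adjusted p = 0.00069), and the fitted log2 value of 3.93 became 2.98 with limma-trend. No WT DMSO library reached the filter's cutoff of 1.67 CPM for HLA-DQA1, which passed through the other groups.

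HLA-DQB1 had 5.14, 6.62 and 4.79 CPM in insR GSK-LSD1 cells, against 4.97, 5.92 and 4.73 CPM in insR DMSO cells. It had 3.77, 7.27 and 6.09 CPM in WT GSK-LSD1 cells, against 2.98, 1.60 and 0.534 CPM in WT DMSO cells. The WT libraries varied more than the insR ones, and the drug-treated WT libraries spanned both insR groups. HLA-DQB1 rose 3.35-fold in WT cells with the drug (adjusted p = 0.000434) and was 3.03-fold higher in insR than in WT cells in DMSO (adjusted p = 0.00163).

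**Figure D2:**
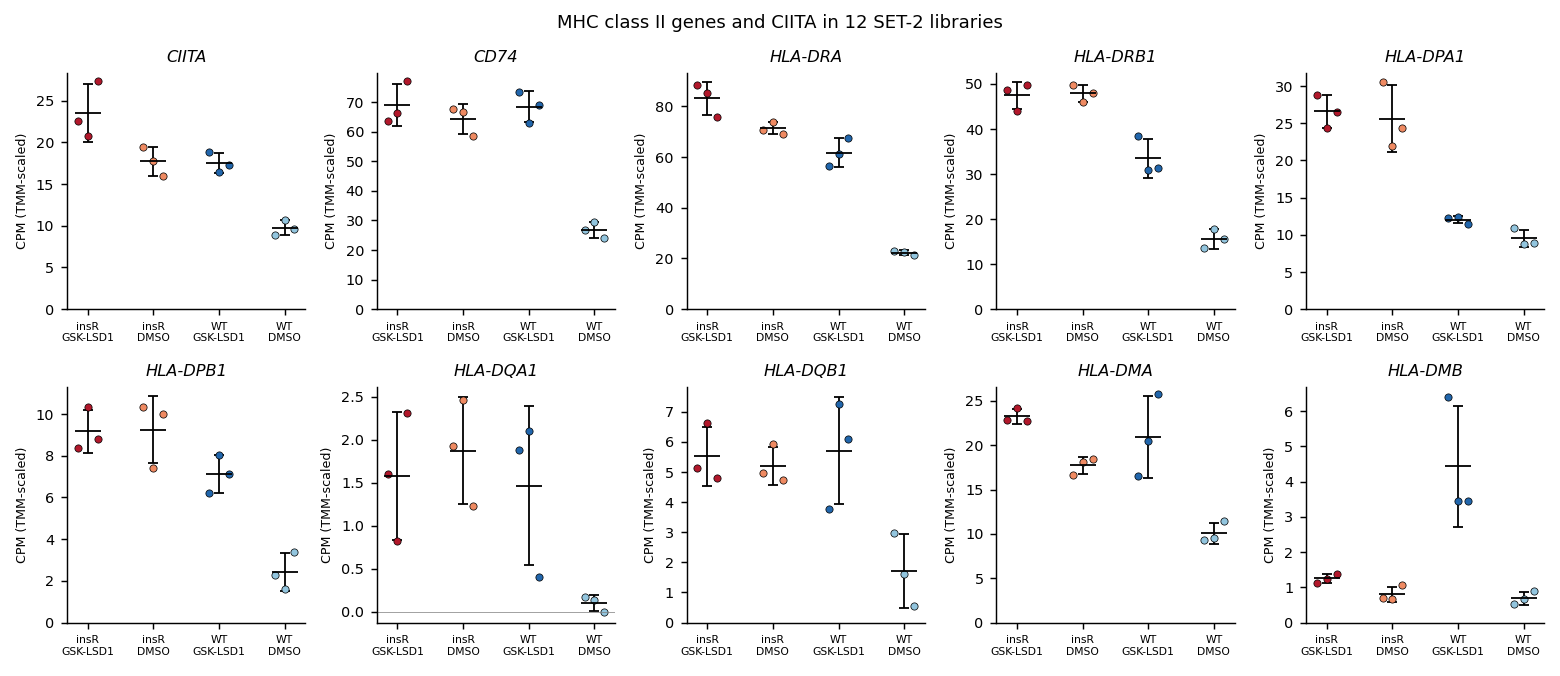
CPM of the 10 genes in each of 12 libraries (points), with the group mean and SD (bars), for insR GSK-LSD1, insR DMSO, WT GSK-LSD1 and WT DMSO from left to right. WT DMSO is lowest for 9 of the genes without overlap with insR DMSO, HLA-DPA1 splits by genotype, and HLA-DMB is high in WT GSK-LSD1 cells alone. Of all genes tested, 20.9% were likewise higher in insR DMSO than in WT DMSO without overlap.

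The HLA-DM chains, which load peptides and stay inside the cell, both rose in WT cells with the drug, by different amounts. HLA-DMA had 22.8, 24.2 and 22.7 CPM in insR GSK-LSD1 cells, against 16.6, 18.1 and 18.4 CPM in insR DMSO cells. It had 16.6, 20.5 and 25.8 CPM in WT GSK-LSD1 cells, against 9.28, 9.49 and 11.4 CPM in WT DMSO cells. Both drug groups lay above their vehicle, with a wide spread in drug-treated WT cells. HLA-DMA rose 2.12-fold in WT cells with the drug (adjusted p = 1.01e-05) and was 1.76-fold higher in insR than in WT cells in DMSO (adjusted p = 0.000534). The insR drug difference was 0.40 on the log2 scale (95% interval 0.08 to 0.71) and did not pass (adjusted p = 0.436).

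HLA-DMB had 1.13, 1.24 and 1.39 CPM in insR GSK-LSD1 cells, against 0.710, 0.658 and 1.05 CPM in insR DMSO cells. It had 6.41, 3.44 and 3.45 CPM in WT GSK-LSD1 cells, against 0.525, 0.668 and 0.891 CPM in WT DMSO cells. Drug-treated WT cells stood above all others, and insR DMSO and WT DMSO overlapped, on 17 and 13 reads in all. HLA-DMB rose 6.14-fold in WT cells with the drug (log2 2.62, SE 0.43, adjusted p = 2.15e-05). It was the 1 gene of the 10 that was lower in insR than in WT cells under the drug, 0.292 times the WT level (adjusted p = 0.000412). In DMSO the genotypes differed by 0.19 on the log2 scale, with an interval of -0.96 to 1.33 (adjusted p = 0.838). That interval also holds the HLA-DMA value of 0.81. HLA-DMB reads per HLA-DMA read were 0.0493, 0.0513 and 0.0612 in insR GSK-LSD1 and 0.0427, 0.0364 and 0.0571 in insR DMSO cells. They were 0.386, 0.168 and 0.134 in WT GSK-LSD1 cells, against 0.0566, 0.0704 and 0.0781 in WT DMSO cells. This ratio was highest in the drug-treated WT libraries and was given no test.

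HLA-DO, made of HLA-DOA and HLA-DOB, binds HLA-DM and restrains it. HLA-DOA had 0, 0 and 1 reads in insR GSK-LSD1 cells, against 1, 2 and 2 reads in insR DMSO cells. It had 29, 23 and 49 reads in WT GSK-LSD1 cells, against 0, 0 and 0 reads in WT DMSO cells. HLA-DOA, like HLA-DMB, reached the filter's cutoff of 1.67 CPM in the drug-treated WT libraries alone and so was tested only because it was high there, and the p values of both with that group are given as a description. With no filter the WT drug response of both was still called. HLA-DOA was read almost solely in drug-treated WT cells, at least 31.1-fold higher than in WT DMSO cells against a floor of 3 reads over the group (adjusted p = 7.8e-08). Under the drug the WT level was 86.8-fold that of insR cells (95% counting interval 15.2 to 3463, adjusted p = 1.21e-07), resting on the 1 read of insR GSK-LSD1 replicate 3. HLA-DOB did not pass the filter on low counts, with 18 reads in insR GSK-LSD1, 17 in insR DMSO, 6 in WT GSK-LSD1 and 21 in WT DMSO cells. With no filter its WT drug response did not pass (adjusted p = 0.0838).

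HLA-DRB6, a pseudogene copy of HLA-DRB, passed the filter. It had 4.66, 4.97 and 3.24 CPM in insR GSK-LSD1 cells, against 5.58, 6.25 and 5.96 CPM in insR DMSO cells. It had 7.35, 5.55 and 5.07 CPM in WT GSK-LSD1 cells, against 1.75, 2.94 and 2.32 CPM in WT DMSO cells. The WT DMSO libraries were again lowest. HLA-DRB6 rose 2.47-fold in WT cells with the drug (adjusted p = 0.000675). HLA-DRB5 did not pass the filter, with 44 reads in WT GSK-LSD1 cells against 6 in WT DMSO cells, and was called with no filter (adjusted p = 0.000986). HLA-DQA2 had 2 reads in insR GSK-LSD1 cells and 5 in WT GSK-LSD1 cells, and HLA-DPB2 had 1 read in WT DMSO cells. HLA-DRB9, HLA-DQB2, HLA-DQB3 and HLA-DPA2 had no read in any library. With the reads of copies summed, the number of the 10 genes called stayed as given here in each of the 6 comparisons.

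**Figure D3:**
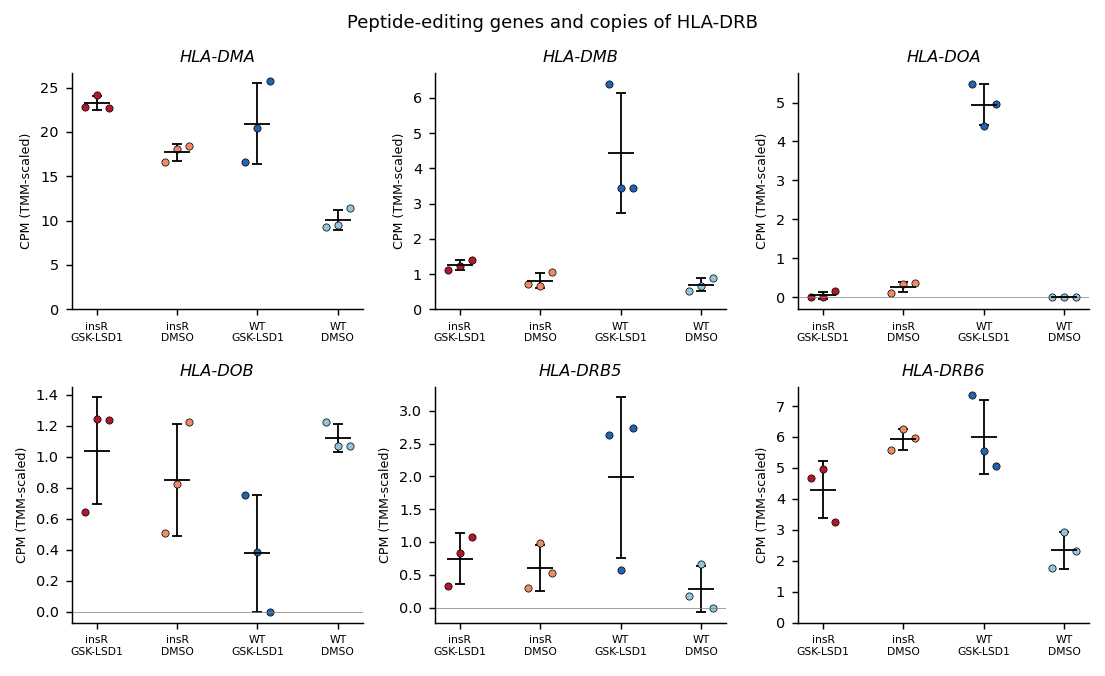
CPM in each of 12 libraries (points) with the group mean and SD (bars) for the genes of HLA-DM and HLA-DO and for 2 copies of HLA-DRB, in the order insR GSK-LSD1, insR DMSO, WT GSK-LSD1, WT DMSO. HLA-DMB and HLA-DOA are highest in the 3 drug-treated WT libraries, with at most 1.39 CPM elsewhere, and HLA-DRB6 is lowest in WT DMSO cells.

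Across the 10 genes, the WT drug response called 9 higher and 0 lower, where 22.7% of the 12864 genes tested were called higher and 45.2% were called in either direction. The 9 include HLA-DMB, tested only because it was high in drug-treated WT cells, and its call is a description. They also include HLA-DQA1, which passed the filter through groups other than WT DMSO. The median log2 difference of the 10 was 1.41, against 0.01 over all genes. All 10 had no overlap between drug and vehicle libraries in the upward direction, as had 26.4% of all genes. In insR cells 0 of the 10 were called by edgeR, where 0.505% of all genes were called and 0.241% were called higher. At an unadjusted p under 0.05, 3 of the 10 (CIITA, HLA-DRA and HLA-DMA) and 996 of all genes passed, and DESeq2 and both limma fits also called 0 of the 10. The insR median was 0.09, and 4 of the 10 did not overlap, all upward, as did 7.21% of all genes upward and 6.44% downward.

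Between genotypes in DMSO, 9 of the 10 were higher in insR cells, where 14.5% of genes were called higher and 30.1% in either direction. HLA-DQA1, among the 9, passed the filter through groups other than WT DMSO. The median was 1.52, against 0.01 over all genes, and the 9 also did not overlap (20.9% of all genes, upward). Under the drug the genotypes differed less in these genes, with 4 of the 10 higher in insR cells (CIITA, HLA-DRA, HLA-DRB1 and HLA-DPA1) and HLA-DMB lower. In that comparison 54.5% of all genes were called, 27.0% higher and 27.5% lower, so the share of the 10 lies near the background. The 5 that did not overlap upward (29.8% of all genes) were these 4 and HLA-DPB1, and 1 did not overlap downward (30.3%). The CIITA call under the drug (log2 0.43, adjusted p = 0.0164) was lost without WT GSK-LSD1 replicate 2 (adjusted p = 0.0533), WT GSK-LSD1 replicate 3 (0.0514) or insR GSK-LSD1 replicate 3 (0.115).

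The insR response was tested directly against the WT response. It was smaller for 8 of the 10 genes, where 11.8% of all genes were called in that direction and 25.1% in either. The 8 were all but CIITA and HLA-DPA1, and the median difference of the 10 was -1.25 on the log2 scale. HLA-DMB counts among the 8 as a description only, since it was tested through the drug-treated WT libraries alone. The HLA-DMA and HLA-DMB calls were the weak ones (adjusted p = 0.0281 and 0.0379). HLA-DMA was lost without WT DMSO replicate 1 or 2 (0.0705 and 0.0757), WT GSK-LSD1 replicate 3 (0.132), insR DMSO replicate 2 or 3 (0.0578 and 0.0561) or insR GSK-LSD1 replicate 1 or 3 (0.0541 and 0.0595). HLA-DMB was lost without 1 of 9 libraries, all but WT DMSO replicate 3 and WT GSK-LSD1 replicates 2 and 3, with adjusted p of 0.053 to 0.0999. HLA-DMB was also lost with DESeq2 (0.0617), limma-voom (0.0503) and no filter (0.089).

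Untreated insR cells and drug-treated WT cells, neighbours in the order of levels, were then compared. In insR DMSO against WT GSK-LSD1, 2 of the 10 were higher (HLA-DRB1 and HLA-DPA1) and HLA-DMB was lower, where 59.0% of all genes were called. The share of genes called was 29.0% higher and 30.0% lower. The median difference of the 10 was 0.11. CIITA differed by 0.03 on the log2 scale (95% interval -0.28 to 0.33) and CD74 by -0.09 (-0.31 to 0.12). HLA-DMA passed as lower in insR DMSO (log2 -0.41, adjusted p = 0.026) only when WT GSK-LSD1 replicate 1 was left out. Libraries did not overlap for 3 of the 10 upward (31.1% of all genes) and 1 downward (31.7%).

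**Figure D4:**
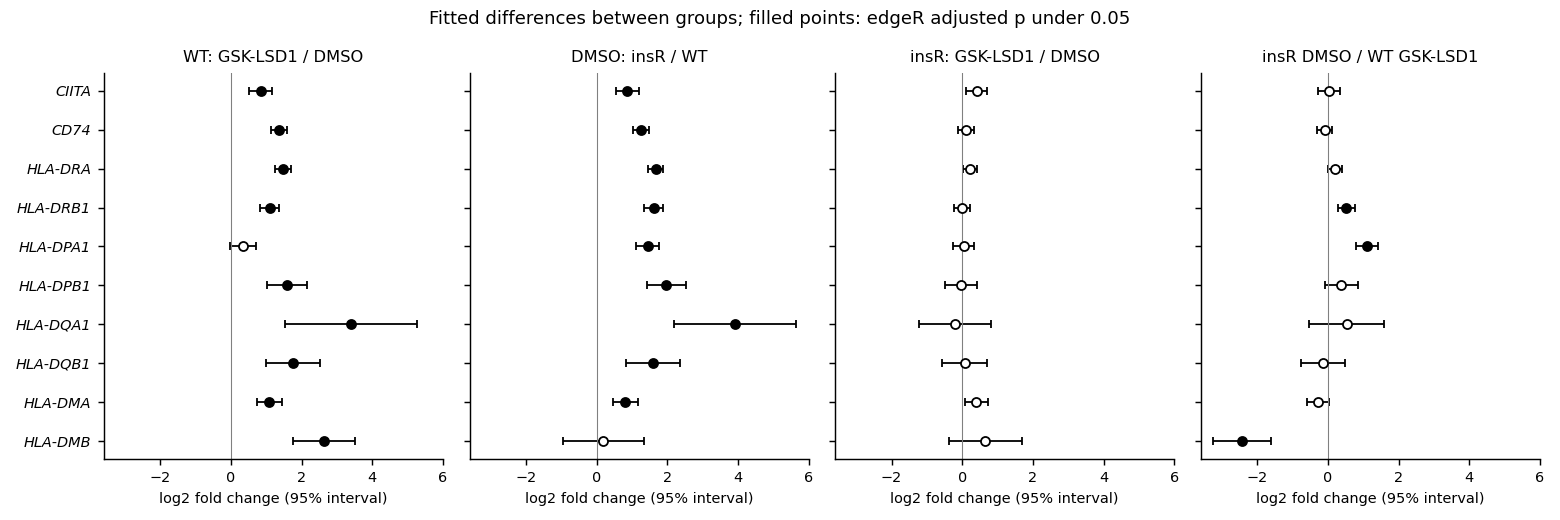
Fitted log2 fold changes with 95% intervals for the 10 genes in 4 comparisons: WT GSK-LSD1 over WT DMSO, insR DMSO over WT DMSO, insR GSK-LSD1 over insR DMSO, and insR DMSO over WT GSK-LSD1. Filled points passed at an edgeR adjusted p under 0.05: 9, 9, 0 and 3 of the 10. Of all genes tested, 45.2%, 30.1%, 0.505% and 59.0% passed, in the same order. The HLA-DQA1 values against WT DMSO rest on 2 reads there.

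Over the 12 libraries, each gene's profile was set beside the mean of the other 9 on the log2 scale. Pearson's r was 0.98 for HLA-DRA, 0.98 for CD74, 0.94 for HLA-DRB1 and 0.93 for CIITA. It was 0.71 for HLA-DPA1 and 0.31 for HLA-DMB, the lowest of the 10. These values describe libraries that fall into 4 groups, so no p is given. Among 8317 other genes with at least 10 CPM on average, the profile most like that of the 10 was GALM (r = 0.99), an enzyme of galactose metabolism. RUNX1T1, a transcriptional corepressor, followed with 0.99, and RNASE1, ZSCAN18, PPP1R13B and ST6GAL1 each had 0.97 to 0.98. DSC2 and RSAD2 had 0.97 each. GALM had 65.3 ± 3.27 CPM in insR GSK-LSD1, 67.2 ± 5.67 in insR DMSO, 63.7 ± 6.01 in WT GSK-LSD1 and 14.9 ± 1.81 in WT DMSO cells (SD, n = 3 each). For CIITA alone the closest were SORT1 (r = 0.97), RSAD2 (0.96), KIFAP3, CASP10 and RUNX1T1 (0.95 to 0.96). RSAD2, an interferon-induced antiviral enzyme, had 53.1 ± 1.70 CPM in insR GSK-LSD1, 31.7 ± 2.56 in insR DMSO, 26.0 ± 1.06 in WT GSK-LSD1 and 7.40 ± 0.932 in WT DMSO cells.

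The lists that follow are read against all 12864 genes, of which 22.7% were called higher and 22.5% lower in the WT drug response, and 14.5% higher and 15.6% lower in insR against WT in DMSO. The median log2 difference over all genes was 0.01 in both.

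Of the 7 genes of the DNA-binding complex on which CIITA docks, all tested (RFX5, RFXAP, RFXANK, NFYA, NFYB, NFYC and CREB1), 2 rose and 0 fell in WT cells with the drug, with a median log2 difference of -0.15. CREB1 had 94.7 ± 3.10 CPM in WT GSK-LSD1 cells and 71.4 ± 5.63 CPM in WT DMSO cells, 0.41 higher on the log2 scale (adjusted p = 0.000808). NFYC rose by 0.30 (adjusted p = 0.0243), which was lost without WT DMSO replicate 1 (0.128), WT DMSO replicate 2 (0.120) or WT GSK-LSD1 replicate 2 (0.125). Between genotypes in DMSO, 1 was lower in insR cells and none higher, with a median of -0.08. That gene was RFXAP, a subunit of RFX, with 3.95 ± 0.0994 CPM in insR DMSO cells and 11.3 ± 1.43 CPM in WT DMSO cells (log2 -1.50, adjusted p = 8.91e-06).

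Of 13 genes that control CIITA, tested from 15 listed, 5 rose and 3 fell in WT cells with the drug, where 22.7% of all genes rose and 22.5% fell, with a median of -0.01. JAK2, a kinase of cytokine receptors, fell by 0.81 on the log2 scale (adjusted p = 9.43e-08). SPI1 (PU.1), a myeloid factor at a CIITA promoter, rose by 1.13 (adjusted p = 1.87e-06) and the kinase JAK1 rose by 0.49 (adjusted p = 3.67e-05).

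Between genotypes in DMSO, 2 of these 13 were higher in insR cells and 1 was lower, where 14.5% and 15.6% of all genes were, with a median of 0.13. SOCS1, an inhibitor of JAK signalling, was 1.24 higher on the log2 scale (adjusted p = 0.00962), JAK1 was 0.26 higher (adjusted p = 0.0205) and the deacetylase HDAC2 had a log2 value of -0.35 (adjusted p = 0.00169). The JAK1 call was lost without WT DMSO replicate 1 (0.082), WT DMSO replicate 2 (0.0517), insR DMSO replicate 1 (0.0982) or insR DMSO replicate 2 (0.104).

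Of 9 genes listed as coactivators of CIITA, NLRC5 among them, 3 rose and 2 fell in WT cells with the drug. These shares lay near the 22.7% and 22.5% of all genes, and the median was 0.21. CREBBP, a histone acetyltransferase, rose by 0.66 (adjusted p = 9.92e-07) and its relative EP300 rose by 0.36 (adjusted p = 0.00603). The acetyltransferase KAT2B fell by 1.33 on the log2 scale (adjusted p = 0.000155). NLRC5, the transactivator of MHC class I and not itself a coactivator of CIITA, fell by 0.36 in WT cells with the drug (adjusted p = 0.00291) while CIITA rose. In DMSO 2 were higher in insR cells and 0 lower, NLRC5 by 0.46 (adjusted p = 0.000317) and CCNT1, a cyclin of elongating RNA polymerase, by 0.33 (adjusted p = 0.00689). The EP300 call was lost without WT DMSO replicate 2 (adjusted p = 0.0535).

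Of 14 processing and turnover genes tested from 16, 6 rose and 2 fell in WT cells with the drug, beside 22.7% and 22.5% of all genes, with a median of 0.29. CTSS, the protease that trims the invariant chain, had 119 ± 7.05 CPM in WT GSK-LSD1 cells and 69.3 ± 3.37 CPM in WT DMSO cells (log2 0.78, adjusted p = 1.49e-07). CTSB, another lysosomal protease, rose by 1.14 and CST3, an inhibitor of such proteases, by 1.18 (adjusted p = 2.49e-11 and 1.42e-06). CTSL, a related protease, fell to 3.97 ± 0.394 CPM in WT GSK-LSD1 cells, against 17.7 ± 5.0 CPM in WT DMSO cells (adjusted p = 1.5e-05).

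In DMSO 5 of these 14 were higher in insR cells and 3 lower, beside 14.5% and 15.6% of all genes, with a median of 0.07. MARCHF1, a ubiquitin ligase that removes class II molecules from the surface, had 303 reads in insR DMSO cells and 1 read in WT DMSO cells, a 263-fold ratio (95% counting interval 46.9 to 10433, adjusted p = 4.36e-11) that rests on the 1 read of WT DMSO replicate 3. Under the drug it had 252 reads in insR cells and 0 in WT cells, at least 97.7-fold higher. CST7, an inhibitor of lysosomal proteases, had 0.564 ± 0.0824 CPM in insR DMSO cells and 21.0 ± 3.19 CPM in WT DMSO cells (log2 -5.20, adjusted p = 3.08e-12). MARCHF1 passed the filter on low counts only through insR libraries and CST7 only through WT libraries, where each was high. Their adjusted p values are therefore a description. CST3 was also lower in insR cells (log2 -1.29), and CTSB was 0.87 higher (adjusted p = 2.97e-06 and 3.4e-09).

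Co-stimulation was thinly expressed, with 6 of 12 genes tested. In WT cells with the drug 1 rose and 1 fell, beside 22.7% and 22.5% of all genes, with a median of -0.03. CD274, the inhibitory ligand PD-L1, fell to 1.35 ± 0.291 CPM in WT GSK-LSD1 cells, against 5.39 ± 0.199 CPM in WT DMSO cells (log2 -2.04, adjusted p = 5.4e-06). CD58, a ligand of CD2, rose by 0.29 (adjusted p = 0.0449), a call lost without any 1 of 7 libraries (adjusted p = 0.0535 to 0.195): WT DMSO replicate 1 or 2, WT GSK-LSD1 replicate 2 or 3, insR DMSO replicate 1, and insR GSK-LSD1 replicate 1 or 2. In DMSO 2 were higher in insR cells and 1 lower, with a median of 0.36. ICOSLG, the ligand of ICOS, had 5.03 ± 1.37 CPM in insR DMSO cells and 30.6 ± 1.72 CPM in WT DMSO cells (log2 -2.58, adjusted p = 6.43e-11). CD274 was 1.01 higher (adjusted p = 0.000698) and CD40 0.43 higher (adjusted p = 0.0104), the CD40 call being lost without insR DMSO replicate 2 (0.0705).

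Of 14 MHC class I genes and loading factors tested from 16, which CIITA does not chiefly serve, 4 rose and 4 fell in WT cells with the drug, near the 22.7% and 22.5% of all genes, with a median of 0.02. HLA-E rose by 1.16 (adjusted p = 1.08e-11). TAP1 and TAP2, the peptide transporter, fell by 1.02 and 0.94 on the log2 scale (adjusted p = 6.61e-09 and 7.2e-06). In DMSO 4 were higher in insR cells and 2 lower, with a median of 0.13. HLA-E was 0.57 higher (adjusted p = 2.31e-06), while HLA-F was lower (log2 -1.63, adjusted p = 1.24e-05). CALR, a chaperone, was 0.27 higher (adjusted p = 0.0127), lost without WT DMSO replicate 2 (0.0506) or insR DMSO replicate 1 (0.0855).

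Of 31 genes in and beside the class II region on chromosome 6, tested from 34, 7 rose and 7 fell in WT cells with the drug, shares close to the 22.7% and 22.5% of all genes, with a median of -0.01. Besides TAP1 and TAP2, the named ones are RGL2, which rose by 1.02, and TAPBP, which rose by 0.49 (adjusted p = 5.65e-06 and 9.64e-05). This list and the class I list share TAP1, TAP2, PSMB8, PSMB9 and TAPBP. In DMSO 5 were higher in insR cells and 0 lower, with a median of 0.02, where 14.5% of all genes were called higher. PHF1, a Polycomb-associated protein, was 0.94 higher and ZBTB9, a zinc finger protein, 0.63 higher (adjusted p = 0.000734 and 0.00669). RPS18 was 0.47 higher (adjusted p = 0.028). The RPS18 call was lost without WT DMSO replicate 1 or 3 (0.0848 and 0.111), insR DMSO replicate 2 or 3 (0.0905 and 0.0975) or insR GSK-LSD1 replicate 3 (0.053).

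**Figure D5:**
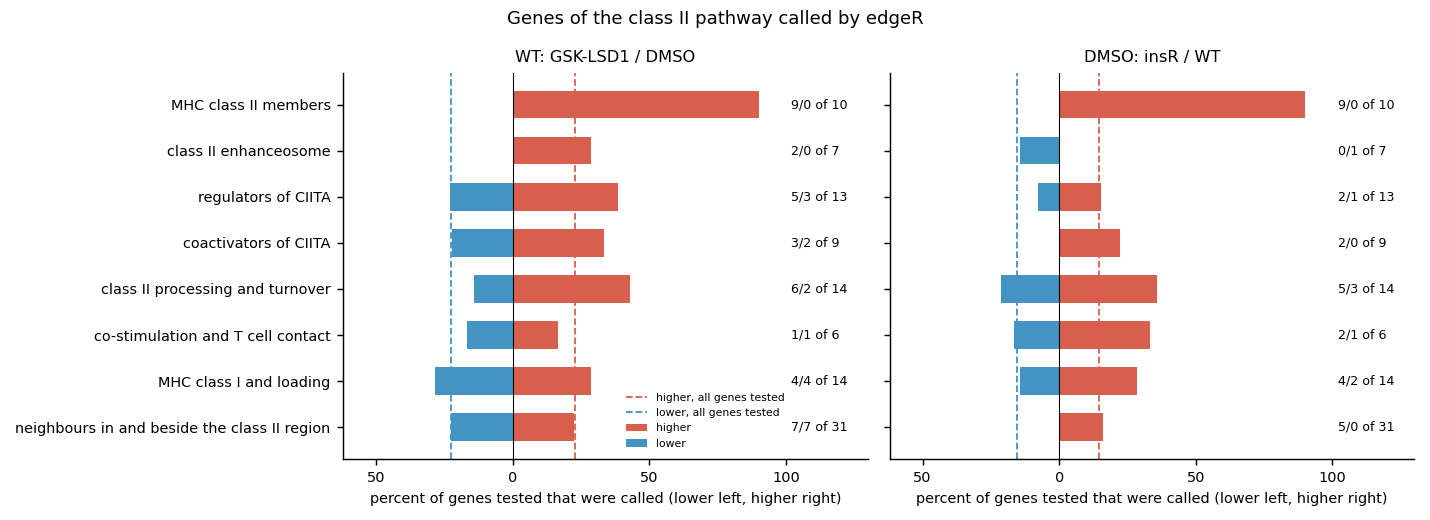
Percent of the genes tested in each list that edgeR called higher (right) or lower (left), for WT GSK-LSD1 over WT DMSO and for insR DMSO over WT DMSO, with counts as higher/lower of tested and dashed lines for all 12864 genes. The bars of the 10 class II genes reach 90 percent in both comparisons, and the other lists shown stay below 50 percent in each direction. The cell type marker lists are not drawn.

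Markers of other class II-bearing cells were summed per library, since they moved with part of these results, and their part in the results was not tested. The 14 monocyte and macrophage markers summed to 140 to 146 CPM in insR GSK-LSD1 and 107 to 119 CPM in insR DMSO cells. They summed to 270 to 300 CPM in WT GSK-LSD1 cells, against 94.6 to 118 CPM in WT DMSO cells. Of 3 tested, 3 rose in WT cells, where 22.7% of all genes rose: VCAN by 4.05, ITGAM by 1.80 and LYZ by 0.62 (adjusted p = 1.47e-15, 9.12e-11 and 3.01e-05). ITGAM was also called in insR cells, 0.82 higher with the drug (adjusted p = 0.00425), which was lost without insR DMSO replicate 1 (0.0658). CD163, MRC1, S100A8 and FCN1 had no read in any library. In DMSO the sums of the genotypes overlapped, and most of each was LYZ, with 80.1 CPM in insR and 83.2 CPM in WT cells on average. VCAN was 1.61 higher in insR cells (adjusted p = 1.76e-07).

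The 16 dendritic cell markers summed to 233 to 251 CPM in insR GSK-LSD1 and 222 to 228 CPM in insR DMSO cells. They summed to 375 to 531 CPM in WT GSK-LSD1 cells, against 181 to 215 CPM in WT DMSO cells. Most of each sum was FCER1A and TCF4. FCER1A averaged 297 CPM in WT GSK-LSD1 and 81.2 CPM in WT DMSO cells, and TCF4 averaged 128 and 91.0 CPM. CLEC9A, FLT3, CLEC10A, CLEC4C, LILRA4 and LAMP3 averaged under 1 CPM in every group. Of 6 tested, 4 rose in WT cells beside 22.7% of all genes, among them FCER1A by 1.87, ZBTB46 by 1.29 and TCF4 by 0.49 (adjusted p = 0.000325, 5.91e-07 and 2.27e-05). The other was ITGAX at 1.11 (adjusted p = 0.0338), lost without WT DMSO replicate 1 or 3 (0.0687 and 0.163) or WT GSK-LSD1 replicate 2 or 3 (0.129 and 0.0511). Without WT DMSO replicate 2 it was 1.73. CD1A, CD1C, CD1E and XCR1 had no read in any library. In DMSO CCR7 was higher in insR cells (log2 1.92, adjusted p = 0.0129) and ZBTB46 lower (log2 -1.12, adjusted p = 5.34e-05). The CCR7 call was lost without WT DMSO replicate 1 (0.07) or insR DMSO replicate 1 (0.0666). CCR7 passed the filter on low counts only through insR libraries, where it was higher, so its p is a description.

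The 12 B cell markers summed to 33.8 to 38.5 CPM in insR GSK-LSD1 and 32.3 to 37.9 CPM in insR DMSO cells. They summed to 25.8 to 26.8 CPM in WT GSK-LSD1 cells, against 17.8 to 25.5 CPM in WT DMSO cells. MS4A1, EBF1, BLNK and VPREB1 had no read in any library. Of 4 tested, 2 rose and 1 fell in WT cells, beside 22.7% and 22.5% of all genes. CR2 fell by 4.04 on the log2 scale (adjusted p = 2.1e-07), with a value of -5.23 without WT GSK-LSD1 replicate 3. The size of this fall rests on few reads, 1, 0 and 4 in WT GSK-LSD1 against 24, 23 and 33 in WT DMSO cells. CD79A rose by 0.78 and PAX5 by 0.91 (adjusted p = 0.03 and 0.0377). The call of CD79A did not hold once WT DMSO replicate 2 or 3 (0.0749 and 0.0758) or WT GSK-LSD1 replicate 1 or 2 (0.106 and 0.0763) was left out, nor that of PAX5 without WT DMSO replicate 1 or 2 (0.0933 and 0.198) or WT GSK-LSD1 replicate 2 or 3 (0.162 and 0.0674). In DMSO CR2 was 2.32 higher in insR cells (adjusted p = 8.03e-09), PAX5 had a log2 value of -1.77 (adjusted p = 0.00515) and CD79B of -0.60 (adjusted p = 0.0247). The CD79B call was lost without WT DMSO replicate 1 or 3 (0.0561 and 0.123) or insR DMSO replicate 1 or 3 (0.109 and 0.0634). PAX5 passed the filter on low counts only through WT libraries, where it was higher, so its p between genotypes is a description.

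The 7 T cell markers found, of which CD3D alone was tested and not called in these comparisons, summed to at most 5.08 CPM in any library. Of the 13 SET-2 lineage markers tested, 4 rose and 7 fell in WT cells with the drug, beside 22.7% and 22.5% of all genes. CD34 and PTPRC, markers of progenitors and of blood cells, rose by 1.24 and 1.13 (adjusted p = 9.14e-13 and 1.07e-11). KLF1, an erythroid transcription factor, fell by 0.92 on the log2 scale (adjusted p = 1.17e-09). In DMSO 4 were higher in insR cells and 0 lower, among them CD33 by 0.73, KIT by 0.34 and CD34 by 0.32 (adjusted p = 1.68e-06, 0.00274 and 0.000924). The share of uniquely aligned reads outside genes also differed, at 13.7% to 15.1% in insR GSK-LSD1, 13.8% to 17.1% in insR DMSO, 18.4% to 19.5% in WT GSK-LSD1 and 16.3% to 16.7% in WT DMSO cells. Its part in the results was not tested.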

How the data were processed

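Polyadenylated RNA of SET-2 cells was read from the 3′ end in 12 libraries, 3 in each of 4 groups. The submitters' processing notes name bcl2fastq 2.2, STAR 2.6.0c, HTSeq 0.9.1, DESeq2 and hg19. Raw read counts per gene were deposited for each library. Deposited normalized values (signal: counts divided by size factors) gave back whole reads for 100% of values within 0.01, with 0 genes differing from the counts. As these reads are the same numbers, edgeR on them had to call the same 5816 genes in the WT drug response. Entries naming no gene, 65.7% to 69.1% of each deposited count table, were left out. Ensembl IDs matched a symbol for 52181 of 63677 genes.

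The counts were tested with edgeR 4.0.16 (R 4.3.3): TMM scaling, filterByExpr, robust quasi-likelihood fit of all 12 libraries, Benjamini-Hochberg adjustment over 12864 genes, called at adjusted p under 0.05, with 6 comparisons. Alternatives used limma 3.58.1, DESeq2 1.42.0, other scalings and filters, summed copies, a replicate block and leaving out each library. Replicates of a group differed by 2.90 to 7.77 chi-square per degree of freedom, more than counting error alone gives. This cannot tell separate cultures from libraries prepared separately from the same culture. On simulated data with 200 genes changed, 74.3% of 2-fold changes were recovered in the WT drug response and 78.2% in the insR response. The changed genes were drawn from all 12864, whereas 5816 were called in the real WT response. These rates therefore do not give the recovery for the 10 genes. An exact rank test of 1 gene alone, 3 libraries against 3 and in either direction, could not go below a p of 0.1. The edgeR test does not have this limit.

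The 10 genes and the gene lists were chosen with earlier results of these data known. From each list, up to 4 called genes of lowest p in the WT response and up to 4 in insR against WT in DMSO are named, apart from some that are not reported here. Levels are CPM and ratios between genes are of reads. Ratios on few reads carry exact 95% counting intervals. Per the file headers no further steps are recorded. Promoters are from RefSeq.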

Additional observations from a re-analysis of the deposited data

Results flagged for a closer look

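The difference of the insR drug response from the WT drug response, tested as an interaction, passed for 8 of the 10 genes and for 2 further class II loci. All were lower, where 11.8% of all genes were called lower and 25.1% in either direction. On the log2 scale it was -1.25 for CD74, -1.25 for HLA-DRA, -1.10 for HLA-DRB1, -1.62 for HLA-DPB1 and -1.67 for HLA-DQB1. It was -0.69 for HLA-DMA, -1.96 for HLA-DMB and -1.78 for HLA-DRB6. For HLA-DQA1 and HLA-DOA, with at most 3 reads in some group, no fold is given, and the adjusted p values were 0.0145 and 0.000287. HLA-DMB and HLA-DOA passed the filter on low counts only through drug-treated WT cells, where they were high, so their p values here are a description.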

How the results depend on the processing

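All 9 WT drug calls and all 9 calls of insR against WT in DMSO kept direction and threshold under every alternative that gave a value for the gene. HLA-DQA1 gave none in either comparison when only the compared groups were fitted. In the difference between responses 8 genes were called, 4 at an adjusted p under 0.01, 6 to 8 without 1 library and 7 with the replicate block, which lost HLA-DMB (adjusted p = 0.0542). Correlations of the deviations of same-numbered libraries ran from -0.17 to 0.20. Differently numbered libraries were not compared, so these values do not settle whether the numbers pair libraries. The block changed no other call of the 10. Without CD74 the summed levels were 221 CPM in insR GSK-LSD1, 197 in insR DMSO, 164 in WT GSK-LSD1 and 72.2 in WT DMSO cells.

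Signs turned only for values that were not called. With upper-quartile scaling CD74 under the drug became -0.037 and CIITA in insR DMSO against WT GSK-LSD1 -0.028. Leaving out 1 library gave these ranges on the log2 scale. In the insR response the values were -0.041 to 0.032 for HLA-DRB1, -0.16 to 0.071 for HLA-DPB1, -0.057 to 0.20 for HLA-DPA1, -0.57 to 0.053 for HLA-DQA1 and -0.0699 to 0.17 for HLA-DQB1. In insR against WT in DMSO the values were -0.0048 to 0.38 for HLA-DMB. In insR against WT under GSK-LSD1 the values were -0.015 to 0.33 for HLA-DMA, -0.069 to 0.065 for CD74, -0.27 to 0.094 for HLA-DQB1 and -0.28 to 0.73 for HLA-DQA1. In insR DMSO against WT GSK-LSD1 the values were -0.048 to 0.10 for CIITA, -0.35 to 0.027 for HLA-DQB1 and -0.078 to 0.94 for HLA-DQA1. Over all genes the insR response called 65, 118 with no filter, 39 with limma-trend, 25 at an adjusted p under 0.01 and as few as 28 without insR GSK-LSD1 replicate 1 or 2, and none of these called any of the 10. It called 29 and 34 without insR DMSO replicate 1 and 2, and 40 without insR GSK-LSD1 replicate 3. The difference in response called 3228 over all genes and 1896 at an adjusted p under 0.01.

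Reads recovered from the normalized values, a check chosen after seeing the data, were identical to the counts. Their equal calls were thus fixed in advance and do not bear on how stable the calls are. Depth limits HLA-DQA1, HLA-DMB, HLA-DOA and HLA-DOB, which had few reads. The cause of lost calls was not tested.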
